A study of Mus musculus with 15 samples.

Results

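The 10 genes followed here are all imprinted in the mouse, and most are known for their part in fetal growth: Peg10, Sgce, H19, Igf2, Dlk1, Meg3, Cdkn1c, Grb10, Mest and Plagl1. They were found by gene symbol in both deposited count tables, and all 10 of 10 were present among 55487 mouse gene rows. The genes were chosen by name from a list drawn up with mutant-to-wildtype differences in these libraries, that of Peg10 first, already known, so every fold change and call of the 10 genes is given as a description and supports nothing beyond itself. The libraries were RNA-seq of erythroid progenitors from fetal liver of 129S6/SvEvTac embryos at stage E12.5, 15 in all, in 5 groups of 3.

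In group 1 of mice, 3 wildtype and 3 Rpl5 mutant libraries were labelled polyA RNA. In group 2, 3 wildtype, 3 mutant and 3 low-yield mutant libraries were labelled total RNA. The deposited sample sheet gives the genotype of both kinds of group 2 mutant as Rpl5plusSkax23Jus, that is, the Skax23Jus allele of Rpl5 beside a wildtype copy, and the labels do not define low-yield. For group 1 the labels say only mutant, and no allele beyond this was stated for any group. The protein made from Rpl5 is part of the large ribosomal subunit, and the series title names Diamond Blackfan anemia, a failure of red cell production most often caused by mutations in ribosomal protein genes. How the progenitors were isolated, and whether each library came from 1 embryo or a pool, was not given in the sources used here, so p-values measure the spread between these libraries, which may be technical.

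An imprinted gene is transcribed mainly from the copy inherited from one parent, because DNA methylation set in the egg or sperm marks a control region nearby. Many imprinted genes act on the size of the fetus and placenta, those expressed from the father's copy (Peg10, Sgce, Igf2, Dlk1, Mest, Plagl1) often promoting growth and those from the mother's copy (H19, Meg3, Cdkn1c, Grb10) often restraining it. Several lie in pairs that share control elements, such as H19 with Igf2 and Dlk1 with Meg3. In the fetal liver, Igf2 and Dlk1 are abundant in the liver's own epithelial precursors, the hepatoblasts, among which the blood-forming cells develop. All mice were of 1 inbred strain and the values are counts per gene, so reads from the mother's and the father's copy could not be told apart and nothing here measures imprinting itself.

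Total counts ran from 24954324 to 58513669 per library. Rpl5 itself stood at 656 to 744 CPM (read counts scaled to library size with TMM factors) in group 1 wildtype and 520 to 570 in group 1 mutant libraries. The group 2 values were 303 to 374 in wildtype, 232 to 248 in mutant and 219 to 278 in low-yield mutant libraries, so each mutant group lay below its wildtype group. Gata1 (206 to 407 CPM over all libraries) and Klf1 (378 to 871 CPM), the defining erythroid transcription factors among the markers, were present in every library. Markers of other cells were present too. The 6 endothelial markers summed to 0.896 to 9.44 CPM per library (Pecam1 highest, at up to 8.16), the 7 stromal ones to 1.64 to 8.04 CPM (Col1a2 up to 4.99), the 6 macrophage ones to 0.790 to 10.4 CPM (Csf1r up to 7.13) and the 4 megakaryocyte ones to 11.0 to 36.4 CPM (Itga2b up to 34.0). Among them Emcn of endothelium was at 0 in 12 of 15 libraries, and Pdgfra and Dcn of stroma and C1qa of macrophages in 11 each. Mpo of granulocyte precursors ranged from 5.52 to 493 CPM and the hepatocyte gene Afp from 2.43 to 31.8 CPM.

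Sequences of 2 kinds bear on how these genes are read. The first is the microRNA pair cut from H19, shown because H19 is both a long noncoding RNA and the precursor of miR-675, and because the count tables hold a separate row for the hairpin. Seeds, bases 2 to 8, which pair with target RNAs, are in capitals, and the sequences are those of RefSeq on GRCm38.p6.
mmu-miR-675-5p: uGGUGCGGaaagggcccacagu
mmu-miR-675-3p: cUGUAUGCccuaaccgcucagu
The rows of the hairpin genes Mir675 (inside H19), Mir335 (inside Mest), Mir483 (inside Igf2) and Mir770 (inside Meg3) held 0 counts in all 15 libraries. The H19 row, with 4471 to 27616 counts per library, therefore describes the long transcript, and these libraries give no level for miR-675.

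The other kind is 250 bases before annotated starts, from RefSeq on GRCm38.p6, for which 6 of the 10 genes (Igf2, Dlk1, Meg3, Grb10, Mest and Plagl1) had 13 entries. They were searched for TGCCGC, the letters bound by ZFP57 when the CG inside them is methylated, on both strands (GCGGCA on the strand printed), and these letters are in capitals. They occurred in 4 of the 13 windows, belonging to Mest, Plagl1 and Meg3, against 8.68% of 32851 windows of the same length over all genes; a match is a run of letters, not a binding site. Grb10 is shown because its level differed between genotypes, and its 2 starts because the count row adds up RNA from both. Mest is shown as the gene with the letters at 2 places in the window. A second entry 3 bases downstream repeats it, so the 4 windows count this stretch more than once. The share over all genes was not matched for the number of CG pairs.
Grb10, upstream start, chr11:12037421-12037670, minus strand: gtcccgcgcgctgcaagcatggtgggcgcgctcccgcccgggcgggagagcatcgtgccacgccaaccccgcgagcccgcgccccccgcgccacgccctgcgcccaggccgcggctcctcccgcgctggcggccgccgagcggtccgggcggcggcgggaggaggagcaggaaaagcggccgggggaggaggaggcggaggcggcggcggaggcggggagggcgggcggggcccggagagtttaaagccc
Grb10, downstream start, chr11:12027972-12028221, minus strand: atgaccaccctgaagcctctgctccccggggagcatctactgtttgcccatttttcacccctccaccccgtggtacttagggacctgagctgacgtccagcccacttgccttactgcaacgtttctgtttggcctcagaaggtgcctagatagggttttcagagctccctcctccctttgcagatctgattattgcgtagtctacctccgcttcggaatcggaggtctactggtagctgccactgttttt
Mest, chr6:30737800-30738049, plus strand: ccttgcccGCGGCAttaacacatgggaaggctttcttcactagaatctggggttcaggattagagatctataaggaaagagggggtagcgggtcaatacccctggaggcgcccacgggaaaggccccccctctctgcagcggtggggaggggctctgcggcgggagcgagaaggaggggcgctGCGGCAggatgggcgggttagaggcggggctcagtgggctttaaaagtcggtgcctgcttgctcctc
The upstream Grb10 window held 40 CG pairs, a number that 98.9% of all windows did not exceed, and the downstream one 8, against a median of 6 over all windows. Neither Grb10 window held the searched letters. The Mest window held 14 CG pairs and Mest was nearly silent in every group, as described further on.

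**Figure D1:**
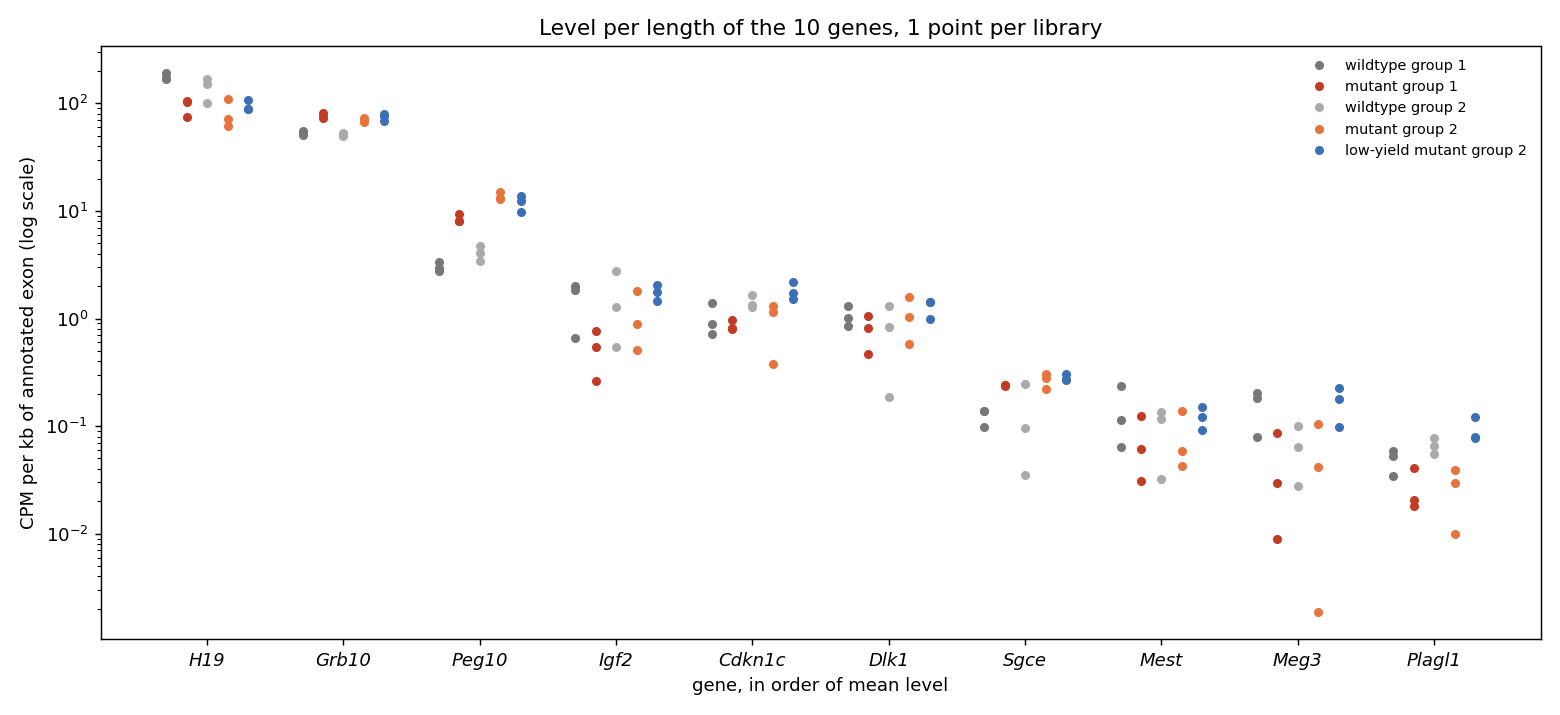
Level of each gene as CPM per kb of annotated exon (log axis), 1 point per library, coloured by group and ordered by the mean over all libraries. H19 and Grb10 lie highest, Peg10 follows, and Meg3, Mest, Sgce and Plagl1 lie at or below 0.304 CPM per kb in every library.

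Compared per length, on the scale of CPM per kb of annotated exon, H19 was the most abundant of the 10 in every group, with a mean of 178 in group 1 wildtype and 140 in group 2 wildtype libraries. Grb10 followed (53.3 and 51.2) and Peg10 next (3.01 and 4.06), and in the wildtype groups these 3 levels did not overlap. In the mutant libraries H19 and Grb10 came together: in group 1 mutants the means were 94.2 for H19 and 76.2 for Grb10, in group 2 mutants 80.5 and 70.6, and in both groups the libraries of the 2 genes overlapped. In low-yield mutants they were 94.8 and 74.6 and did not overlap. Igf2, Dlk1 and Cdkn1c ranged between 0.526 and 1.81 as group means, in an order that changed from group to group, with neighbours that overlapped except for Igf2 and Dlk1 in low-yield mutants. Sgce, Meg3, Mest and Plagl1 made up the lowest 4 in every group, with group means from 0.0261 to 0.282. Levels of groups 1 and 2 of mice are not compared with each other, since the kind of RNA differed.

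**Figure D2:**
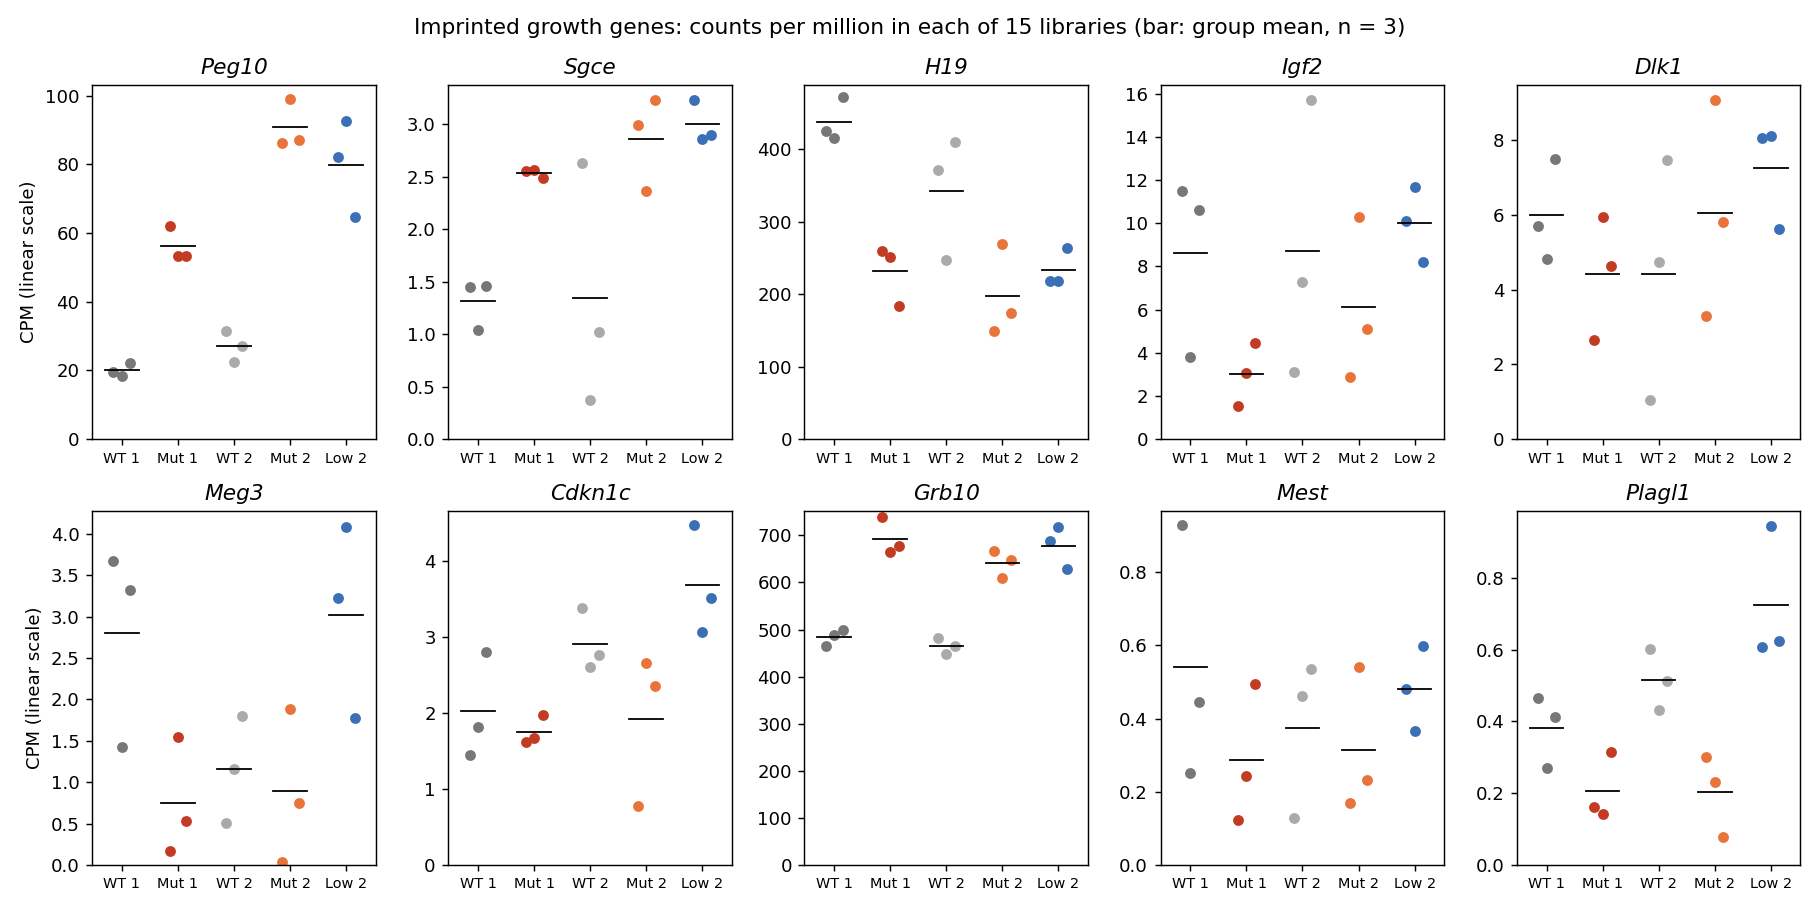
CPM of the 10 genes (linear axes starting at 0), 1 point per library and a bar at the mean of the 3 libraries of each group. Peg10 and Grb10 lie higher in every mutant and low-yield mutant library than in any wildtype library of the same mouse group, H19 lies lower in group 1 mutants, and Igf2, Dlk1, Meg3 and Mest spread widely within groups.

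Peg10 and its neighbour Sgce form the first pair. Peg10 (ENSMUSG00000092035, chr6:4747306-4760517, plus strand) descends from a retrotransposon, keeps gag-like and pol-like parts read through a frameshift, and is needed for the placenta. In group 1 its level was 19.6, 18.4 and 22.3 CPM in wildtype libraries 1 to 3 and 62.0, 53.3 and 53.3 CPM in mutant libraries. Levels in group 2 were 31.6, 22.6 and 27.0 CPM in wildtype, 86.2, 99.1 and 87.2 CPM in mutant and 82.1, 92.5 and 64.6 CPM in low-yield mutant libraries. The genotypes were apart in each group of mice: the lowest mutant library stood at 53.3 CPM against 22.3 CPM in the highest wildtype library of group 1, and at 64.6 against 31.6 CPM in group 2.

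The fitted log2 fold change of Peg10 was 1.48 ± 0.10 (SE, 3 against 3 libraries) in group 1, a 2.79-fold higher level, with an adjusted p of 7.34e-06 (edgeR quasi-likelihood test). Group 2 libraries gave 1.75 ± 0.14 in mutants (3.35-fold, edgeR adjusted p = 1.42e-05) and 1.56 ± 0.14 in low-yield mutants (2.94-fold, edgeR adjusted p = 2.33e-05), both against the same 3 wildtype libraries. Peg10 ranked 11th, 5th and 12th by p among the 14048, 15024 and 15024 genes tested in these comparisons. The genotype difference in group 2 exceeded that in group 1 by 0.28 ± 0.17 on the log2 scale, a difference that did not pass the test (edgeR adjusted p = 1). Low-yield mutants stood 0.19 ± 0.13 below the other group 2 mutants on the log2 scale, with overlapping libraries and an edgeR adjusted p of 1.

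Sgce (ENSMUSG00000004631, chr6:4674350-4747207, minus strand) encodes epsilon-sarcoglycan, a membrane protein mutated in a human movement disorder, and starts back to back with Peg10, with 98 bases between the annotated starts. Its level was far lower: 1.45, 1.04 and 1.46 CPM in wildtype and 2.55, 2.56 and 2.49 CPM in mutant libraries of group 1. For group 2 the levels were 2.63, 0.376 and 1.02 CPM in wildtype, 2.99, 2.36 and 3.23 CPM in mutant and 3.23, 2.86 and 2.90 CPM in low-yield mutant libraries. The groups did not overlap in group 1, whereas in group 2 wildtype library 1 lay among the mutants, and the low-yield mutants lay above all 3 wildtype libraries. The log2 fold change was 0.94 ± 0.28 in group 1 (edgeR adjusted p = 0.0462), a call lost when any 1 of the 6 libraries was left out (adjusted p 0.0831 to 0.169) and in edgeR's legacy mode (adjusted p = 0.065).

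In group 2 Sgce differed by 1.17 ± 0.43 in mutants and 1.21 ± 0.42 in low-yield mutants on the log2 scale, neither past the threshold (edgeR adjusted p = 0.125 and 0.0723). These values depended on single libraries. Without wildtype library 1 they were 1.98 (edgeR adjusted p = 0.00691) and 2.02 (edgeR adjusted p = 0.00301). Over all omissions of 1 library they ran from 0.75 to 1.98 in mutants and from 0.80 to 2.02 in low-yield mutants. The edgeR adjusted p reached 0.346 and 0.233, and in each comparison 8 of 9 omissions gave no call. Per kb of exon, Peg10 exceeded Sgce in every library, by 21.5 to 28.1 times in group 1 wildtype and 33.1 to 38.7 times in group 1 mutant libraries, without overlap. In group 2 the ratio ran from 19.2 to 95.9 in wildtype, 43.0 to 67.0 in mutant and 35.5 to 51.5 in low-yield mutant libraries, and the groups overlapped; the Sgce counts behind it were 13 to 125 per library.

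H19 and Igf2 lie 72.6 kb apart on chromosome 7 and draw on shared enhancers, with CTCF bound to an unmethylated control region on the mother's copy. H19 (ENSMUSG00000000031, chr7:142575529-142578143, minus strand) is a long noncoding RNA, abundant in the fetus and silenced in most tissues after birth. In group 1 it stood at 425, 416 and 473 CPM in wildtype and 260, 251 and 184 CPM in mutant libraries. The group 2 values were 371, 247 and 411 CPM in wildtype, 150, 270 and 174 CPM in mutant and 218, 218 and 264 CPM in low-yield mutant libraries. Wildtype and mutant libraries were apart in group 1, while in group 2 wildtype library 2 lay within the range of both kinds of mutant.

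H19 fell by 0.92 ± 0.13 on the log2 scale in group 1 mutants, to 0.529 of the wildtype level (edgeR adjusted p = 0.00559). In group 2 its log2 fold change was -0.80 ± 0.26 in mutants (edgeR adjusted p = 0.136) and -0.56 ± 0.26 in low-yield mutants (edgeR adjusted p = 0.232), neither past the threshold. Without mutant library 2, the highest of its group, the value in mutants was -1.08 with an edgeR adjusted p of 0.0292. Over all omissions of 1 library that value ran from -1.08 to -0.63, with an edgeR adjusted p of up to 0.327. No call was made in 8 of the 9. The genotype difference of H19 was not shown to differ between the groups of mice (0.13 ± 0.36 on the log2 scale, edgeR adjusted p = 1).

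Igf2 (ENSMUSG00000048583, chr7:142650766-142666816, minus strand), the insulin-like growth factor that drives fetal growth, was less abundant than H19 in every library, by 43.3 to 398 times per kb of exon. It stood at 11.5, 3.79 and 10.6 CPM in wildtype and 1.52, 3.08 and 4.43 CPM in mutant libraries of group 1. Levels in group 2 were 3.10, 7.28 and 15.7 CPM in wildtype, 2.89, 10.3 and 5.11 CPM in mutant and 10.1, 11.7 and 8.22 CPM in low-yield mutant libraries. The groups overlapped in each comparison and the highest library of group 2 wildtype held 5.08 times the lowest. The log2 fold change was -1.52 ± 0.55 in group 1, -0.60 ± 0.63 in group 2 mutants and 0.14 ± 0.58 in low-yield mutants, none past the threshold in edgeR (adjusted p = 0.148, 0.671 and 0.918).

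For group 1, DESeq2 called Igf2 (adjusted p = 0.0018), as did edgeR without wildtype library 2 (log2 fold change -1.87, adjusted p = 0.0137). In group 2 the sign of the Igf2 value in mutants turned without wildtype library 3 (0.18) and that in low-yield mutants without wildtype library 1 (-0.23). The rows that overlap Igf2 held little: Gm49394 had at most 2 counts in a library and the antisense Igf2os at most 19.

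Dlk1 and Meg3 lie 77.7 kb apart on chromosome 12. Dlk1 (ENSMUSG00000040856, chr12:109452823-109463336, plus strand) encodes a membrane protein with EGF-like repeats related to the Notch ligands. Its level was 5.70, 4.82 and 7.49 CPM in wildtype and 2.65, 5.93 and 4.64 CPM in mutant libraries of group 1. Group 2 libraries gave 1.04, 4.74 and 7.46 CPM in wildtype, 3.29, 9.07 and 5.81 CPM in mutant and 8.06, 8.10 and 5.61 CPM in low-yield mutant libraries, again with overlap in each comparison. The log2 fold changes were -0.45 ± 0.27, 0.36 ± 0.55 and 0.63 ± 0.53 in the order of the 3 comparisons with wildtype, none past the threshold; the value in group 2 mutants became -0.04 without wildtype library 1.

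Meg3 (ENSMUSG00000021268, chr12:109541001-109571726, plus strand), a long noncoding RNA from the mother's copy, stood at 3.67, 1.42 and 3.32 CPM in wildtype and 0.162, 1.55 and 0.534 CPM in mutant libraries of group 1. For group 2 the levels were 0.506, 1.16 and 1.80 CPM in wildtype, 0.0336, 1.89 and 0.749 CPM in mutant and 3.23, 4.08 and 1.77 CPM in low-yield mutant libraries. The lowest of these values rested on 1 count and the libraries overlapped in each comparison. The log2 fold change was -1.91 ± 0.59 in group 1 (edgeR adjusted p = 0.0705), -0.53 ± 0.70 in group 2 mutants and 1.27 ± 0.53 in low-yield mutants, none past the threshold in edgeR.

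In group 1, Meg3 passed in DESeq2 (adjusted p = 0.0179), in edgeR without wildtype library 2 (-2.22, adjusted p = 0.0416) and in edgeR without mutant library 2 (-3.00, adjusted p = 0.0151). In group 2 mutants its value became 0.01 without mutant library 1. Rian, a noncoding RNA transcribed downstream of Meg3, fell by 1.92 ± 0.41 on the log2 scale in group 1 mutants (edgeR adjusted p = 0.011), from 1.73 to 3.67 CPM in wildtype to 0.435 to 0.947 CPM in mutant libraries. In group 2 Rian ran from 0.474 to 3.32 CPM in wildtype, 0.134 to 2.01 CPM in mutant and 1.51 to 3.20 CPM in low-yield mutant libraries, with no call.

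Grb10 (ENSMUSG00000020176, chr11:11930508-12038683, minus strand) encodes an adaptor protein that binds the activated insulin and IGF1 receptors and restrains growth. It was one of the most abundant of the 10, at 465, 488 and 499 CPM in wildtype and 738, 664 and 677 CPM in mutant libraries of group 1. The group 2 values were 483, 449 and 465 CPM in wildtype, 667, 610 and 648 CPM in mutant and 688, 718 and 628 CPM in low-yield mutant libraries. The highest wildtype library held 499 CPM and the lowest mutant library 664 CPM in group 1, and in group 2 the highest wildtype library held 483 CPM and the lowest of either kind of mutant 610 CPM.

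Grb10 had the smallest coefficient of variation of the 10 genes in both wildtype groups (3.52% in group 1, 3.60% in group 2) and in group 2 mutants (4.51%). Sgce had a smaller one in group 1 mutants (1.5% against 5.74%) and in low-yield mutants (6.76% against 6.79%). Grb10 rose by 0.52 ± 0.06 on the log2 scale in group 1 mutants (1.43-fold, edgeR adjusted p = 0.000497). In group 2 Grb10 rose by 0.46 ± 0.08 in mutants (1.38-fold, edgeR adjusted p = 0.00285) and by 0.54 ± 0.08 in low-yield mutants (1.46-fold, edgeR adjusted p = 0.000462). The difference between the groups of mice was -0.04 ± 0.11 on the log2 scale and did not pass the test (edgeR adjusted p = 1). Because Peg10 rose by more, the ratio of Grb10 to Peg10 per kb of exon was 16.4 to 19.5 in wildtype and 8.74 to 9.32 in mutant libraries of group 1. In group 2 the ratio was 11.2 to 14.6 in wildtype, 4.52 to 5.68 in mutant and 5.69 to 7.13 in low-yield mutant libraries, apart from wildtype in each case.

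Cdkn1c (ENSMUSG00000037664, chr7:143458339-143461050, minus strand) encodes p57, an inhibitor of cyclin-dependent kinases. It stood at 1.45, 1.81 and 2.81 CPM in wildtype and 1.62, 1.67 and 1.98 CPM in mutant libraries of group 1. Group 2 libraries gave 3.38, 2.60 and 2.76 CPM in wildtype, 0.773, 2.66 and 2.35 CPM in mutant and 4.48, 3.07 and 3.52 CPM in low-yield mutant libraries. Each mutant group overlapped its wildtype group, and the log2 fold changes of -0.22 ± 0.32, -0.58 ± 0.35 and 0.34 ± 0.31 did not pass the test; that in group 1 became 0.11 without wildtype library 3. Low-yield mutants lay above the other group 2 mutants without overlap (0.92 ± 0.34 on the log2 scale), also without passing the test (edgeR adjusted p = 1).

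Mest (ENSMUSG00000051855, chr6:30723547-30748465, plus strand), which encodes a protein of the alpha/beta hydrolase fold, and Plagl1 (ENSMUSG00000019817, chr10:13060504-13131694, plus strand), a zinc finger transcription factor known to act on other imprinted genes, were near the lower limit of detection. Mest held 4 to 48 counts per library, or 0.122 to 0.928 CPM, and overlapped in every comparison. Part of it lies opposite Copg2, a more abundant gene at 30.5 to 45.7 CPM, and the use of strand in counting was not given in the sources used here. Plagl1 held 3 to 31 counts per library.

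Plagl1 stood at 0.464, 0.269 and 0.411 CPM in wildtype and 0.162, 0.141 and 0.316 CPM in mutant libraries of group 1. For group 2 the levels were 0.601, 0.433 and 0.512 CPM in wildtype, 0.302, 0.232 and 0.0775 CPM in mutant and 0.608, 0.944 and 0.623 CPM in low-yield mutant libraries. In group 2 the mutants lay below and the low-yield mutants above wildtype without overlap, the latter by a margin of 0.608 against 0.601 CPM. Its log2 fold changes of -0.88 ± 0.63, -1.41 ± 0.65 and 0.48 ± 0.46 did not pass the test, and neither did the difference of 1.89 ± 0.61 between low-yield and other mutants (edgeR adjusted p = 1). Those of Mest were -0.90 ± 0.67, -0.41 ± 0.68 and 0.31 ± 0.59, the last of which became -0.03 without wildtype library 1.

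**Figure D3:**
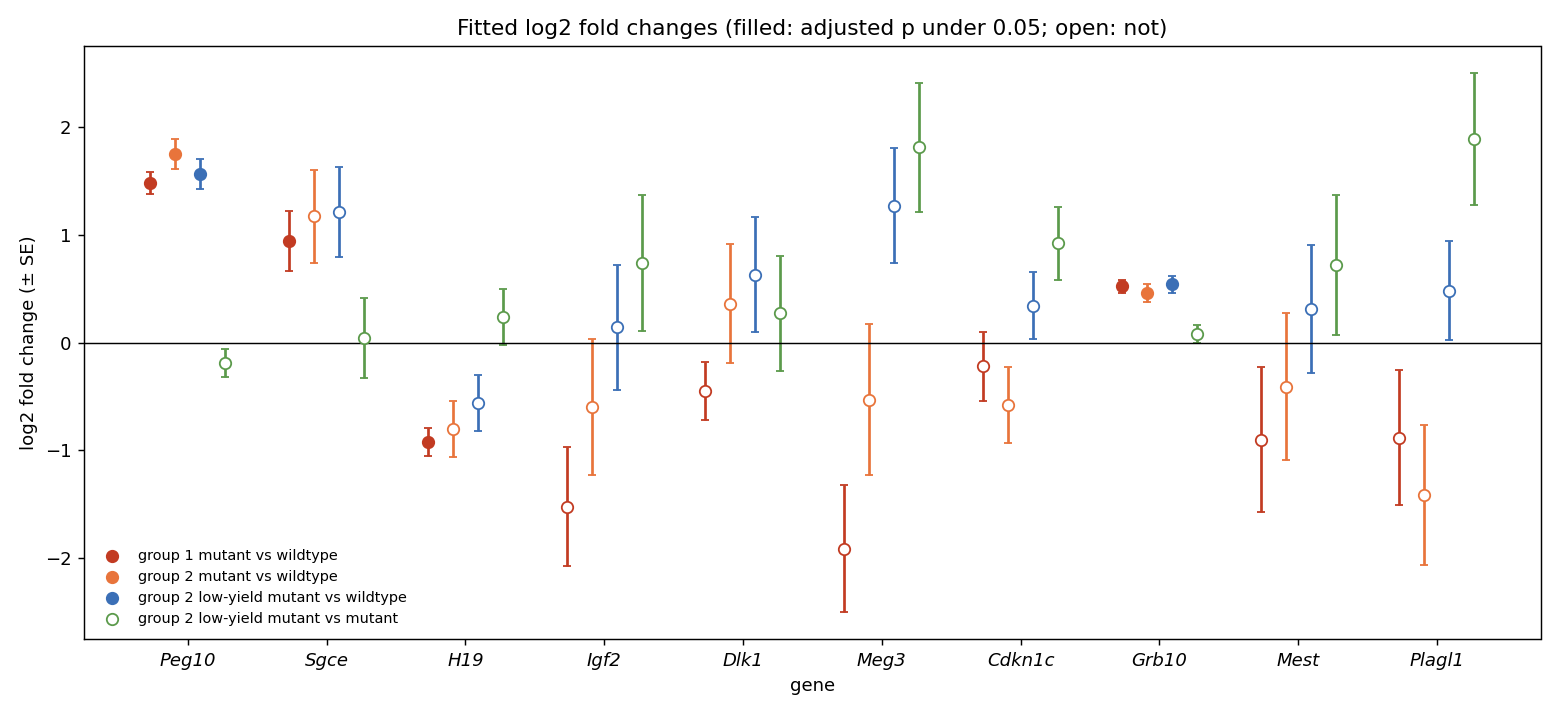
Log2 fold change with its standard error for the 10 genes in 4 comparisons, filled where the adjusted p was under 0.05 and open where it was not. Peg10 and Grb10 lie above 0 and are filled in all 3 comparisons with wildtype, Sgce and H19 are filled in group 1 only, and no point of the comparison of low-yield with other mutants is filled.

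Counted over the list, 4 of 10 genes were called in group 1 (Peg10, Sgce and Grb10 higher, H19 lower), where 12.6% of all 14048 genes tested were called. In the legacy mode it was 3 of 10, without Sgce. With DESeq2 it was 6 of 10, where 2307 of the 14048 genes were called. With the replicate number as a block, the count over all genes in group 1 rose from 1766 to 2863 and that of the 10 stayed at 4. In group 2, 2 of 10 were called higher in mutants, where 3.32% of 15024 genes were called higher, and 2 of 10 in low-yield mutants, where 6.68% were. None of the 10 was called lower in either comparison, against 2.95% and 5.86% of all genes. These were Peg10 and Grb10 each time, and both comparisons share the wildtype libraries. All 10 passed the filter on low counts in each comparison. In the comparison of low-yield with other mutants 0 of 10 and 0% of all genes were called by edgeR, with 480 genes at an unadjusted p under 0.05 and 6 genes called by DESeq2.

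Over both groups of mice in 1 fit, 4 of 10 were called, where 19.6% of 15954 genes were. The log2 fold changes were 1.61 ± 0.09 for Peg10, 1.04 ± 0.26 for Sgce, 0.49 ± 0.05 for Grb10 and -0.86 ± 0.17 for H19, and edgeR called these 4 also whichever library was left out. The median over the 10 was -0.55, against 0.00 over all genes, with 3 values above 0 and 7 below. In low-yield mutants against wildtype 9 of 10 values were above 0, with a median of 0.51, and in group 2 mutants 4 of 10, with a median of -0.47. In this fit over both groups Meg3 stood at -1.45 ± 0.51 (edgeR adjusted p = 0.0634) and passed without group 1 wildtype library 2 (-1.64), group 2 wildtype library 1 (-1.56) or group 2 mutant library 2 (-1.82). No member was called for a difference of its genotype effect between the groups of mice, where 0.0188% of genes were called.

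**Figure D4:**
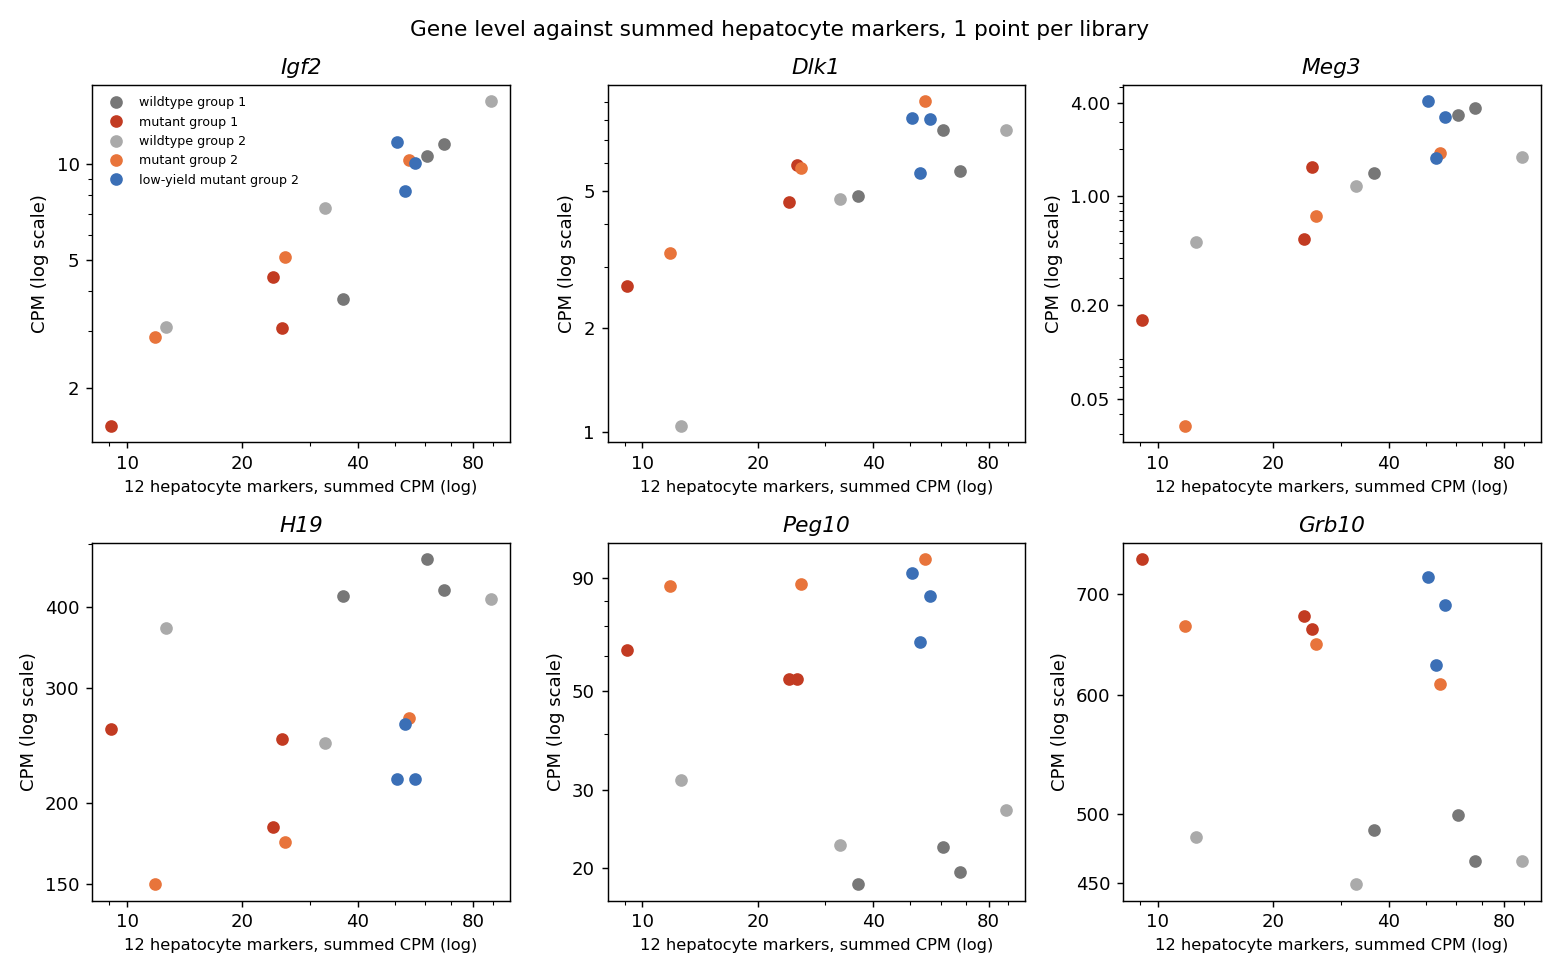
CPM of 6 of the genes against the summed CPM of 12 hepatocyte markers, both on log axes, 1 point per library coloured by group. In 4 of 5 groups the library lowest in the markers is also the lowest in Igf2, Dlk1 and Meg3, while among low-yield mutants it is the highest in all 3; Peg10 and Grb10 separate by genotype within each mouse group.

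Igf2, Dlk1, Meg3 and Mest moved, in most groups, with markers of another cell type. The 12 hepatocyte markers summed to 36.6 to 67.2 CPM in group 1 wildtype and 9.09 to 25.3 CPM in group 1 mutant libraries. In group 2 they summed to 12.6 to 88.9 CPM in wildtype, 11.8 to 54.5 CPM in mutant and 50.6 to 56.3 CPM in low-yield mutant libraries. Alb, the serum albumin gene, stood at 1.05 to 23.3 CPM, and no library lacked it or Afp. Of the 12 markers 2 were called lower in group 1 mutants, where 12.6% of all genes were called in either direction. In group 2, 0 of the 12 were called in either comparison with wildtype. There 3.32% of all genes were called higher and 2.95% lower in mutants, and 6.68% higher and 5.86% lower in low-yield mutants. In bulk RNA, fewer cells of a type and less RNA per cell cannot be told apart.

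The library with the lowest marker sum was also the lowest in Mest in 5 of 5 groups and in Igf2, Dlk1 and Meg3 in 4 of 5. For Cdkn1c this held in 3 of 5 groups and for Plagl1 in 1 of 5. For Igf2, Dlk1 and Meg3 the exception was the low-yield group, whose marker sums differed least and where that library was the highest in Igf2, Dlk1 and Meg3. The full order of the 3 libraries matched that of the markers in 4 of 5 groups for Meg3, in 3 of 5 for Igf2, Dlk1 and Mest, in 2 of 5 for Cdkn1c, in 1 of 5 for Peg10, Sgce, H19 and Plagl1, and in 0 of 5 for Grb10. The 5 genes whose pattern was most like that of Igf2 were Afp (r = 0.958), Trf (0.945), Alb (0.929), Itih2 (0.922) and Ndufaf2 (0.894). These are Pearson correlations of log2 CPM over 15 libraries, centred on each mouse group, among 9442 genes, and the libraries share their genotype groups. Alb, Afp, Trf and Itih2 encode plasma proteins made by the liver, and Ndufaf2 a mitochondrial assembly factor. Dlk1 came 8th by the same measure (0.762). The part of the hepatocyte signal in the values of Igf2, Dlk1, Meg3 and Mest was not tested.

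The 5 genes most like Peg10 by that measure were Zmat3 (r = 0.973), Rras2 (0.971), Dpagt1 (0.970), Tjp1 (0.969) and Dock1 (0.968), all of them higher in mutants over both groups of mice. Zmat3 encodes an RNA-binding zinc finger protein and is a known p53 target, Rras2 a Ras-like GTPase, Dpagt1 the enzyme that starts N-glycan synthesis, Tjp1 a tight junction protein and Dock1 an activator of Rac. Grb10 came 7th (0.966), while Dlk1 had 0.168, Igf2 -0.321 and H19 -0.761. Since wildtype and mutant libraries form separate sets of points, these numbers describe mainly the genotype difference.

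Summed markers of several lineages also differed between genotypes. The 9 erythroid markers summed to 4120 to 5320 CPM in wildtype and 2270 to 2320 CPM in mutant libraries of group 1, and to 4510 to 8430, 3010 to 3460 and 2610 to 3540 CPM in wildtype, mutant and low-yield mutant libraries of group 2. The 3 early progenitor markers Kit, Cd34 and Gata2 summed to 151 to 181 CPM in wildtype and 197 to 240 CPM in mutant libraries of group 1. In group 2 they summed to 159 to 207 CPM in wildtype, 234 to 288 CPM in mutant and 258 to 290 CPM in low-yield mutant libraries. The 4 granulocyte markers summed to 43.6 to 276 CPM in wildtype and 96.9 to 703 CPM in mutant libraries of group 1, and to 6.53 to 12.6, 48.4 to 135 and 86.7 to 157 CPM in wildtype, mutant and low-yield mutant libraries of group 2. The granulocyte sums overlapped in group 1, and edgeR called 0 of these 4 genes in group 1 and over both groups, 3 in group 2 mutants and 4 in low-yield mutants, all higher. Of the 9 erythroid markers 8 were called lower in group 1, 4 in group 2 mutants and 5 in low-yield mutants, and of the 3 early progenitor markers 1, 2 and 2 were called higher. Over all genes 12.6% were called in group 1, 3.32% higher and 2.95% lower in group 2 mutants, 6.68% higher and 5.86% lower in low-yield mutants, and 19.6% over both groups.

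In group 2 the megakaryocyte markers summed to 11.0 to 13.6, 18.4 to 18.7 and 27.4 to 36.4 CPM in wildtype, mutant and low-yield mutant libraries, and the endothelial ones to 0.896 to 1.85, 3.20 to 5.56 and 6.06 to 9.44 CPM, without overlap. Itga2b made up most of the megakaryocyte sum; of the 3 megakaryocyte markers tested in group 2, 1 was called higher in each kind of mutant, and their median log2 fold change was -0.22 in mutants and 1.62 in low-yield mutants. In group 1 both overlapped, at 13.1 to 23.5 against 18.8 to 32.5 CPM for megakaryocyte and 1.99 to 4.15 against 3.52 to 9.29 CPM for endothelial markers. Stromal markers were apart in group 1 (1.64 to 2.18 CPM in wildtype, 4.37 to 6.36 in mutant libraries) and, in group 2, between wildtype (2.51 to 4.33) and low-yield mutants (4.96 to 8.04), while group 2 mutants (4.13 to 5.94) overlapped with wildtype. Pecam1 reached 8.16 CPM and Cdh5 0.474 among endothelial markers, and Col1a2 4.99 and Col1a1 0.379 among stromal ones. In group 1, 0 of 2 endothelial and 1 of 2 stromal markers tested were called higher, where 12.6% of genes were called. In group 2, 1 of 3 endothelial markers tested was called higher in mutants and 2 of 3 in low-yield mutants. The stromal count was 0 of 3 in each, where 3.32% and 6.68% of genes were called higher. Macrophage markers overlapped in each comparison. The part of these shifts in the values of Peg10, Grb10, Sgce and H19 was not tested.

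Other imprinted genes served as context. Of 25 further genes expressed from the father's copy, 17 could be tested over both groups of mice and 2 were called, where 19.6% of all genes were. Both were higher: Sfmbt2, a Polycomb-related gene, and Peg3, a zinc finger gene. The median of the 17 was 0.07 on the log2 scale. Sfmbt2 stood at 2.88 to 3.75 CPM in wildtype and 6.06 to 10.1 CPM in mutant libraries of group 1, and at 5.63 to 7.84, 9.61 to 11.6 and 10.3 to 13.6 CPM in wildtype, mutant and low-yield mutant libraries of group 2. It rose in each comparison with wildtype (log2 fold changes 1.18 ± 0.23, 0.80 ± 0.18 and 0.91 ± 0.18). Peg3 was called only in the fit over both groups (0.35 ± 0.11, edgeR adjusted p = 0.0357), while Usp29 (1.36 ± 0.51) and Peg13 (0.21 ± 0.11) were not called.

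Of 24 further genes listed as expressed from the mother's copy, some of them in placenta or brain only, 16 could be tested over both groups, with 2 called higher, 1 lower and a median of -0.01, against 19.6% of all genes called. Slc22a3, a transporter of organic cations, stood 1.20 ± 0.17 higher on the log2 scale, and Ascl2, a transcription factor of the placenta, 2.80 ± 0.48 higher. Ascl2 reached 0.206 CPM in wildtype and ran from 0.645 to 0.992 CPM in mutant libraries of group 1, and in group 2 it reached 0.443 CPM in wildtype and ran from 0.791 to 1.68 CPM in mutants of either kind. Rian was the one lower (-1.57 ± 0.45). In the single comparisons Ascl2 was called higher in all 3 against wildtype and Slc22a3 in both kinds of group 2 mutant. Blcap did not pass (-0.23 ± 0.08, edgeR adjusted p = 0.0527).

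Around the growth factor Igf2, 10 of 16 genes of the IGF pathway could be tested over both groups, 3 called higher and 1 lower, with a median of 0.09, where 19.6% of all genes were called. Igf2bp3 (0.41 ± 0.07) and Igf2bp1 (0.22 ± 0.05), RNA-binding proteins that bind Igf2 mRNA, and the receptor gene Igf1r (0.22 ± 0.06) were higher on the log2 scale, and Insr, the insulin receptor gene, was lower (-0.29 ± 0.08). Igf2bp3 stood at 50.3 to 56.9 CPM in wildtype and 67.7 to 78.7 CPM in mutant libraries of group 1. The group 2 values were 43.2 to 55.9, 57.2 to 72.7 and 63.2 to 84.3 CPM in wildtype, mutant and low-yield mutant libraries. Of 8 genes tested in each single comparison, 2 were called in group 1, 1 in group 2 mutants and 2 in low-yield mutants, all higher. Of all genes, 12.6% were called in group 1, and 3.32% and 6.68% were called higher in the group 2 comparisons. Igfbp4, named after its values were seen, was called higher in both kinds of group 2 mutant (1.25 ± 0.30 and 2.17 ± 0.28). It was not called in group 1 (0.97 ± 0.69, edgeR adjusted p = 0.451) or over both groups (1.06 ± 0.39, edgeR adjusted p = 0.0877).

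Of 11 genes that keep or lay down methylation at imprints, 7 could be tested, with 1 higher, 2 lower and a median of -0.03 over both groups, against 19.6% of all genes called. Dnmt3b, a de novo DNA methyltransferase, was higher (0.48 ± 0.09). Uhrf1, which guides Dnmt1 to newly copied DNA, was lower (-0.38 ± 0.05), and so was Zfp445, a zinc finger protein that binds imprinted control regions (-0.26 ± 0.05). Uhrf1 fell in each comparison with wildtype, from 503 to 549 CPM to 374 to 402 CPM in group 1 and from 774 to 854 CPM to 634 to 683 CPM in group 2 mutants. Dnmt3b was called in group 1 and in low-yield mutants, and Zfp445 in group 1. Ctcf stood at -0.06 ± 0.05 over both groups and was not called.

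Of 10 retrotransposon-derived relatives of Peg10, 5 could be tested and 1 was called over both groups of mice, where 19.6% of all genes were: Rtl6 (0.28 ± 0.09 on the log2 scale, edgeR adjusted p = 0.0278), with no call in any single group. Rtl5 (0.82 ± 0.57), Rtl8a (0.09 ± 0.20) and Rtl1 (-1.03 ± 0.99), which did not exceed 0.474 CPM, were not called. The median of the 5 was 0.09.

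Among 11 cyclins, kinases and inhibitors related to the action of Cdkn1c, all tested, 3 were higher and 3 lower over both groups, with a median of -0.09, where 19.6% of all genes were called. Cdkn1a, the relative of Cdkn1c that encodes p21 and is a known p53 target, rose from 1.60 to 3.05 CPM in wildtype to 26.6 to 34.1 CPM in mutant libraries of group 1 (3.80 ± 0.20 on the log2 scale). In group 2 it rose from 2.05 to 3.44 CPM to 26.9 to 50.8 CPM in mutants (3.82 ± 0.31) and 18.4 to 29.6 CPM in low-yield mutants (3.07 ± 0.32). Ccnd2, the gene of cyclin D2, was higher (0.80 ± 0.08), while Ccne1 (-0.56 ± 0.07) and Ccnd3 (-0.51 ± 0.07), genes of cyclins E1 and D3, were lower over both groups. Cdk6 (0.24 ± 0.06, higher) and Ccna2 (-0.22 ± 0.06, lower), named after their values were seen, completed the calls. In group 1 alone 3 of the 11 were called higher and 4 lower, where 12.6% of all genes were called. In each kind of group 2 mutant 2 were called higher and 2 lower, where 3.32% and 2.95% of all genes were called in mutants and 6.68% and 5.86% in low-yield mutants.

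Of 10 Delta and Notch genes related to Dlk1, 7 could be tested and 1 was called over both groups, where 19.6% of all genes were: Dll4 (2.95 ± 0.67 on the log2 scale), a Notch ligand gene. It reached 0.0514 CPM in wildtype and ran from 0.262 to 0.711 CPM in mutant libraries of group 1, while in group 2 wildtype (up to 0.379 CPM) and mutants of either kind (0.232 to 1.28 CPM) overlapped. Notch1 (0.90 ± 0.43) was not called over both groups. It was called higher in low-yield mutants (1.59 ± 0.35) and not in group 2 mutants (1.14, edgeR adjusted p = 0.0948) or group 1 (0.81), and the difference between low-yield and other mutants did not pass the test (0.46 ± 0.32, edgeR adjusted p = 1). The median of the 7 was 0.12.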

How the data were processed

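RNA-seq values were taken from 2 tables of expected counts per gene deposited by the authors, 1 for each group of mice, whole numbers as deposited. The submitters' processing notes name cutadapt 2.3, STAR 2.7.8a, RSEM 1.3.3 and the mouse build GRCm38; neither the gene annotation nor a strand setting is given in the sources used here. Reads of near-identical or overlapping genes may therefore be shared among rows. RNA was extracted with a column kit and sequenced as 151 bp pairs, per the labels' protocols. Of 55487 gene rows, 99.5% were found in GENCODE M21, which gave positions and exon lengths. Rows naming no mouse gene held 5 counts in all and were left out.

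Each library's group came from its title. Counts were fitted with edgeR 4.0.16 (TMM, filterByExpr, robust quasi-likelihood with the edgeR 4 mode, Benjamini-Hochberg over all genes tested, threshold 0.05, two-sided): group 1 in 1 fit of 6 libraries, group 2 in 1 fit of 9, and both groups in 1 fit of 12 with the mouse group as a term. The interaction came from a separate fit of the same 12 libraries, which added the product of genotype and mouse group. A called gene is one under the threshold, and each SE is the fold change divided by the root of its F. Fold changes are of fitted counts; CPM values used the same scaling. Likeness used log2(CPM + 0.5) of genes with a mean of at least 2 CPM in each table. The fits were tested on simulated data. Alternatives were DESeq2 1.42.0, its size factors, other filters, the replicate number as a block, edgeR's legacy mode and leaving out each library. The legacy mode, the default here, was run first; the edgeR 4 mode was made the reported fit after the results of both were seen, to follow an earlier analysis of these data.

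In group 1, same-numbered libraries deviated together over genes (r = 0.56, 0.24 and 0.23), though wildtype library 3 went with mutant library 2 as well (r = 0.32). No stated design pairs them: the reported fit has no block, and the block is an alternative, printed where it moves a count. In group 2 they did not in all pairs (r from -0.10 to 0.32).

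The members and lists were chosen with earlier results of these data known. All 10 members were named. By rule, at most 4 genes of each list were named, those with the smallest adjusted p over both groups, and for Peg10 and Igf2 the 5 most like genes. Igfbp4, Cdk6 and Ccna2 were named beyond this rule, after their values were seen. No pair of libraries agreed within sampling noise (chi-square per degree of freedom 18.5 to 69.6). Depth ranged from 24954324 to 58513669 counts, and genes of under 50 counts a library, such as Mest and Plagl1, carry wide errors.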

Additional observations from a re-analysis of the deposited data

How the results depend on the processing

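Peg10 and Grb10 were called in each comparison with wildtype under every alternative run, and of 1139 alternative values over the 10 genes and the counts, 1084 kept their direction and side of the threshold, or, for counts, stayed within 1.5 times. Genes called numbered 2863 against 1766 in group 1 with the replicate block, 1452 against 942 in group 2 mutants with DESeq2, 6 against 0 between low-yield and other mutants with DESeq2, and, for the interaction, 13 with DESeq2 and 5 with the replicate block against 3; the cause was not tested. The replicate numbers share only a number in group 2, where the block gave 1309 genes in mutants and 2331 in low-yield mutants and called Sgce in the latter (1.24, adjusted p = 0.0373); it changed no other call of a member. Leaving out 1 library at a time gave 753 to 1729 genes in group 1, 425 to 1323 in group 2 mutants, 900 to 2395 in low-yield mutants and 0 to 22 between low-yield and other mutants, with fewer libraries in each fit.

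Values not past the threshold changed sign when 1 library was left out. Their ranges were, in group 1, -0.39 to 0.11 for Cdkn1c. In group 2 mutants they were -0.04 to 1.02 for Dlk1, -1.14 to 0.18 for Igf2 and -1.48 to 0.01 for Meg3. In low-yield mutants against wildtype they were -0.23 to 0.92 for Igf2 and -0.03 to 0.69 for Mest, and against other mutants -0.02 to 0.63 for Dlk1 and -0.06 to 0.15 for Sgce. Over both groups the range was -0.29 to 0.06 for Dlk1, and in the interaction -0.15 to 1.13 for Mest, -0.16 to 0.27 for H19 and -0.20 to 1.02 for Sgce. With 3 libraries a group, values of low genes rest on few counts.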
